A study of Homo sapiens with 9 samples.

Results

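Core epiblast-like cells of human extra-embryoids (hEEs) were the cells that held the pluripotency transcripts *POU5F1* and *SOX2* and little or none of the transcripts that mark the neighbouring states. They numbered 6080 of the 22426 cells in the files and 31.6% of the 19248 cells that passed the filters on depth and mitochondrial share. hEEs are 3D aggregates grown from the wild-type human pluripotent stem cell line ESI017, which had been kept in expanded potential (hEP) medium on mouse feeder cells; the labels give no treatment, and by the study's methods that medium held a WNT inhibitor and a ROCK inhibitor, the aggregates of both days had ROCK inhibitor on their first day, and both had moved to a post-implantation culture medium (mIVC2) before D4. Structures with a visible inner and outer compartment were picked, pooled and dissociated on day 4 (D4) and day 6 (D6), and the transcript 3′ ends of single cells were sequenced in 1 library per day. By the study's methods, the pool of each day joined wells of 2 independent experiments, from different clones and passage numbers of the line. With 1 library per day there is no replicate check, no test could be run, and the difference between days cannot be told apart from the difference between the 2 libraries. Brackets hold 95% intervals, which cover counting error only.

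The epiblast is the pluripotent tissue of the embryo, from which the amnion, the primitive streak and the body's germ layers arise. POU5F1 and SOX2 are partner transcription factors that hold cells in the pluripotent state. UTF1 is a chromatin-associated factor of undifferentiated cells, and SFRP2 is a secreted WNT-binding protein that pluripotent cells of the post-implantation stage release. NODAL, a TGF-β family ligand, keeps primed epiblast cells undifferentiated and induces its own secreted antagonists, LEFTY1 and LEFTY2.

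Members were chosen by measured unique molecular identifiers (UMIs), that is, by counted transcripts. A cell needed at least 5 UMIs of *POU5F1* and 1 of *SOX2*. It could hold at most 2 of *FN1*, a hypoblast gene, none of *TFAP2A*, an amnion gene, at most 4 of *TAGLN*, an actin-binding protein of contractile cells, and at most 2 of *CYP26A1*, which degrades retinoic acid. The primitive streak genes *TBXT*, *MIXL1* and *EVX1* and the noncoding RNA AC131094.1 together could reach 1 UMI. The comparison cells, called FN1-positive below, held at least 3 UMIs of *FN1*, none of *SOX2* and at most 5 of *POU5F1*. Because the rule used these genes on the same cells, differences between core and FN1-positive cells are descriptions. They support nothing on their own.

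At D4, 2364 of 9151 kept cells were core epiblast-like (25.8% [24.9, 26.7], exact binomial), and at D6 3716 of 10097 were (36.8% [35.9, 37.8]). The log2 ratio of the shares was 0.51 [0.44, 0.59]. FN1-positive cells numbered 4061 at D4 and 3567 at D6. The core cells had a median of 14282 UMIs and 4129 genes at D4 and of 14248.5 UMIs and 4185.5 genes at D6, so depth was nearly the same on both days. FN1-positive cells were shallower, with medians of 11012 and 10902 UMIs. Summed over cells, core levels rest on 34751155 UMIs at D4 and 54980779 at D6. The libraries shared 40 cell barcodes, of which 3 named a core cell on both days.

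The cells just outside the rule differed in number between days. At D4, 499 cells met every criterion except that on *TAGLN*, against 60 at D6. Cells that missed only the criterion on *TFAP2A* numbered 271 at D4 and 643 at D6, and those that missed only that on *CYP26A1* numbered 272 and 458. At D4, the 128 cells with 4 UMIs of *TAGLN* held *SFRP2* at 606 UMIs per 1e6 UMIs (CPM) and *VIM*, an intermediate filament of mesenchymal cells, at 1171 CPM, and the 73 cells with 5 held them at 549 and 1259 CPM. At D6, the 443 cells with 1 UMI of *SOX2* and the 218 with none had *POU5F1* at 1411 and 1434 CPM and *UTF1* at 77.9 and 74.8 CPM. The 2364 and 3716 members with no *TFAP2A* UMI and the 205 and 308 cells with 1 differed little at D4, with *SFRP2* at 665 and 663 CPM. At D6 it stood at 491 CPM in the members and at 373 CPM in the cells with 1 UMI.

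Of the 4 markers, *UTF1* and *SFRP2* were not part of the rule, and both were present. *SFRP2* (chromosome 4, 153780591 to 153789083, GRCh38.p14) stood at 665 CPM [657, 674] at D4 and 491 CPM [485, 497] at D6 in core cells, and at 9.28 and 6.39 CPM in FN1-positive cells. At least 1 UMI of it was found in 99.5% of core cells at D4 and 98.0% at D6. After each cell was thinned to 8000 UMIs, which left 2265 and 3623 core cells, these shares were 98.6% [98.1, 99.1] and 94.8% [94.1, 95.5]. In the 3569 and 3073 FN1-positive cells deep enough for thinning they were 6.39% and 4.85%. *UTF1* (chromosome 10, 133230217 to 133231558) stood at 66.9 CPM [64.2, 69.7] at D4 and 76.7 CPM [74.4, 79.0] at D6. It was seen in 37.9% [35.9, 39.9] and 43.3% [41.7, 44.9] of thinned core cells, and in 53.9% and 61.0% before thinning, against 0.869% and 2.34% of thinned FN1-positive cells. Both markers were present in cells that were chosen without them, but they were named together with the rule, so this is a description.

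The genes of the rule are given as a description. *POU5F1* (chromosome 6, 31164337 to 31170682) stood at 1166 CPM [1155, 1178] at D4 and 1377 CPM [1367, 1387] at D6, and thinned core cells had medians of 9 and 11 UMIs of it. *SOX2* (chromosome 3, 181711925 to 181714436) stood at 282 CPM [277, 288] and 289 CPM [284, 293], with a median of 2 UMIs per thinned cell on both days. *TAGLN* was at 69.2 CPM at D4 and 22.6 CPM at D6, so cells that passed the limit on it still held unequal amounts on the 2 days.

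**Figure D1:**
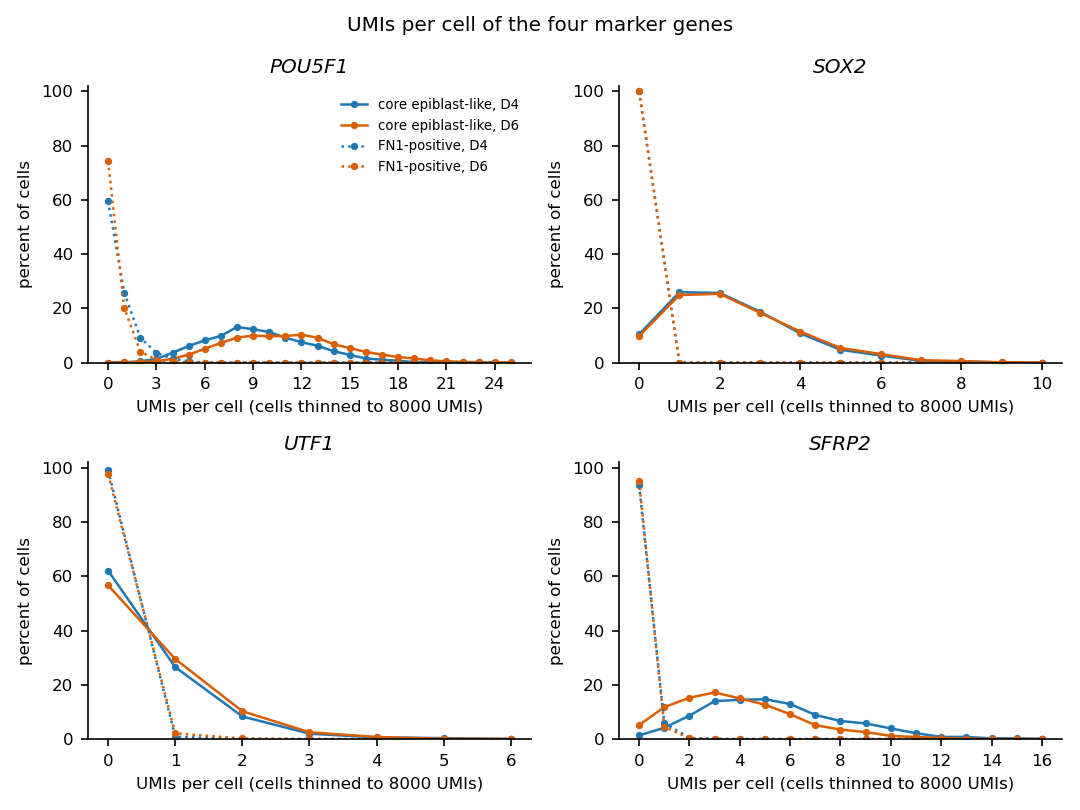
Percent of cells (y axis) with each number of UMIs (x axis) of *POU5F1*, *SOX2*, *UTF1* and *SFRP2* after thinning every cell to 8000 UMIs, where solid lines are core epiblast-like cells and dotted lines FN1-positive cells, blue at D4 and orange at D6. *POU5F1* and *SOX2* were used by the rule, and *SFRP2*, which was not, was missing from few core cells and from most FN1-positive cells.

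Between D4 and D6 the core cells hardly differed in most genes. Of 10495 genes with a mean of at least 5 CPM over both days, 22 (0.21%) were at least 2-fold higher at D6 and 20 (0.191%) at least 2-fold lower, *TAGLN* of the rule among the latter. The median log2 ratio was 0.03, and 95% of genes lay between -0.38 and 0.52. At 1.5-fold the numbers were 186 (1.77%) higher and 83 (0.791%) lower. In FN1-positive cells, 277 of 10466 genes (2.65%) were at least 2-fold higher at D6 and 116 (1.11%) at least 2-fold lower. The central 95% of their log2 ratios ran from -0.71 to 1.03.

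**Figure D2:**
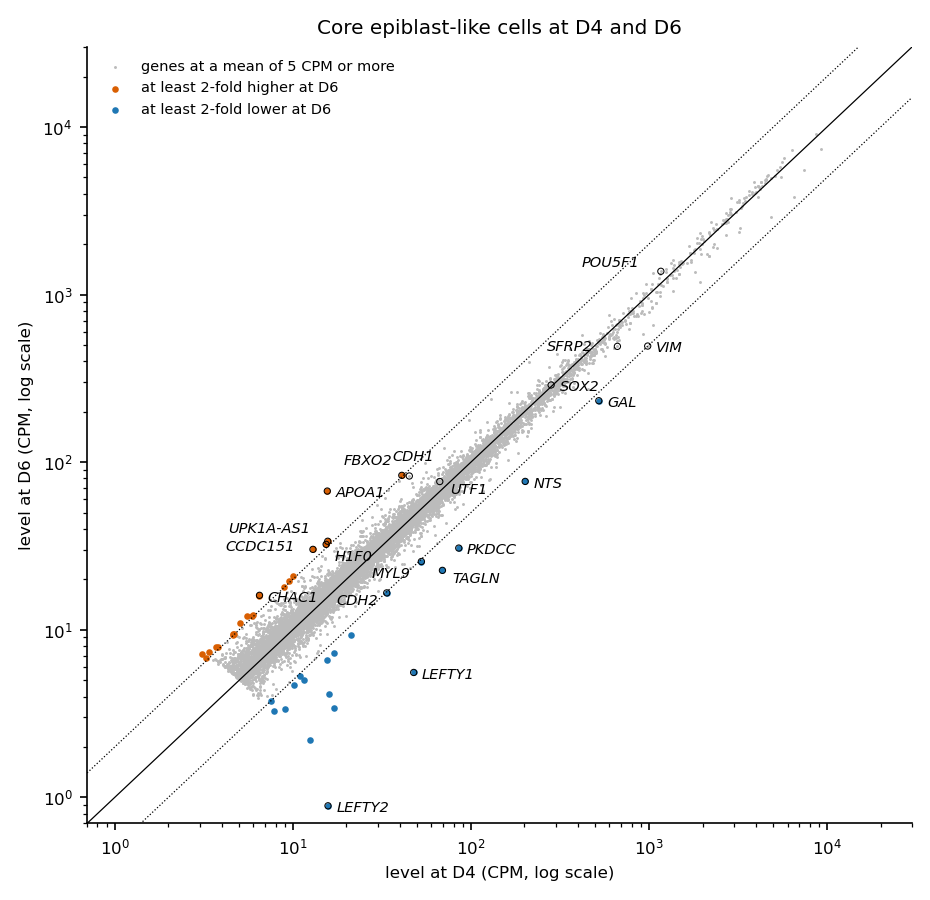
Level of each gene in core epiblast-like cells at D4 (x axis) and D6 (y axis), in CPM on log scales, for genes at a mean of 5 CPM or more, where the solid line marks equal levels and the dotted lines 2-fold differences, and orange points are at least 2-fold higher at D6 and blue points at least 2-fold lower. *LEFTY1* and *LEFTY2* lie farthest below the line and *APOA1* farthest above it.

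The lowest ratios belonged to the NODAL antagonists. *LEFTY1* (chromosome 1, 225886282 to 225889146) stood at 47.7 CPM [45.5, 50.1] at D4 and 5.57 CPM [4.96, 6.23] at D6, a log2 ratio of -3.10 [-3.28, -2.92]. Its neighbour *LEFTY2* (chromosome 1, 225936603 to 225941220) stood at 15.8 CPM [14.5, 17.1] and 0.891 CPM [0.659, 1.18], a log2 ratio of -4.15 [-4.60, -3.72]. Few cells carried them even at D4: *LEFTY1* was seen in 10.9% [9.65, 12.3] of thinned core cells at D4 and in 2.87% [2.35, 3.47] at D6, with up to 29 UMIs in a cell at D4 and up to 7 at D6. In FN1-positive cells *LEFTY1* was at 154 CPM at D4 and 172 CPM at D6, so it did not follow the difference in core cells, whereas *LEFTY2* was at 293 and 16.9 CPM, nearly the same ratio as in core cells. *TAGLN*, which the rule limits to 4 UMIs, also stood higher in the core cells of D4. Among members with no *TAGLN* UMI at all, a subset chosen after the values were seen, with 1078 cells at D4 and 2792 at D6, *LEFTY1* was at 21.3 and 4.85 CPM, a log2 ratio of -2.13 [-2.40, -1.87].

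Of the 19 genes listed for NODAL signalling, 13 reached 5 CPM, and *LEFTY1* and *LEFTY2* were the 2 past 2-fold, both lower (0.191% over all genes). *LEFTY2* reached this mean only through D4, where it was high. The median of the 13 was 0.01, beside 0.03 over all genes. The ligand *NODAL* itself was scarce in core cells, at 2.53 CPM [2.03, 3.12] and 2.11 CPM [1.74, 2.53], against 39.3 and 59.0 CPM in FN1-positive cells. The co-receptor *TDGF1* (184 and 162 CPM), the receptor *ACVR2B* (76.8 and 75.7 CPM), the transducer *SMAD2* (58.5 and 58.8 CPM) and its partner *FOXH1* (89.6 and 75.2 CPM) differed little between days. *SKIL*, a SMAD-binding repressor, was higher at D6, at 169 and 263 CPM.

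Other genes with lower values at D6 were cytoskeletal genes and a cadherin. *VIM* (chromosome 10, 17228241 to 17237593) was at 984 CPM [974, 995] at D4 and 493 CPM [487, 499] at D6, just short of 2-fold, and thinned core cells had medians of 7 and 3 UMIs of it. *CDH2*, the cadherin of neural and mesodermal cells, was at 33.7 CPM [31.8, 35.7] and 16.6 CPM [15.5, 17.7], and *MYL9*, a myosin light chain of contractile cells, at 52.7 CPM [50.4, 55.2] and 25.6 CPM [24.2, 26.9]. The epithelial cadherin *CDH1* (chromosome 16, 68737292 to 68835537) went the other way, with 45.1 CPM [42.9, 47.4] and 82.7 CPM [80.4, 85.2], a log2 ratio of 0.87 [0.79, 0.96]. A UMI of *CDH1* was found in 28.0% [26.1, 29.9] of thinned core cells at D4 and in 46.8% [45.1, 48.4] at D6, and of *CDH2* in 22.7% [21.0, 24.5] and 11.7% [10.7, 12.8]. In members with no *TAGLN* UMI the log2 ratios kept their sign, at -0.90 for *VIM*, -0.84 for *CDH2*, -0.75 for *MYL9* and 0.77 for *CDH1*, all short of 2-fold.

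Among 17 compared actomyosin and YAP target genes, 14 were lower and 3 higher at D6, with *MYL9* the 1 past 2-fold (0.191% lower over all genes) and a median log2 ratio of -0.25, beside 0.03 over all genes. The actins *ACTB* (3230 and 2486 CPM) and *ACTG1* (2182 and 1701 CPM) and the tropomyosins *TPM1* (181 and 139 CPM) and *TPM2* (292 and 214 CPM) were lower at D6, while the YAP targets *CCN1* (56.0 and 52.6 CPM) and *CCN2* (44.0 and 44.8 CPM) were close on both days. The rule's limit on *TAGLN*, which belongs to this list, was part of the selection. Of 22 compared genes of epithelial polarity and junctions, 13 were higher and 9 lower, with a median of 0.05. Of its tight junction genes, *TJP1* was at 137 and 142 CPM, *CLDN6* at 258 and 224 CPM and *CLDN7* at 64.5 and 91.7 CPM. Of 17 basement membrane and integrin genes none passed 1.5-fold, which is near the share over all genes, 1.77% higher and 0.791% lower.

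*NTS*, the precursor of neurotensin, stood at 202 CPM [197, 207] and 76.8 CPM [74.5, 79.1], and *GAL*, the precursor of galanin, at 523 CPM [515, 531] and 233 CPM [229, 237]. *PKDCC*, a secreted kinase of extracellular proteins, was at 85.5 CPM [82.5, 88.7] and 30.7 CPM [29.3, 32.2]. *NTS* went the other way in FN1-positive cells, from 28.1 to 229 CPM, and *GAL* the same way, from 242 to 75.7 CPM. With the rule genes left out (*TAGLN*, at a log2 ratio of -1.61, among them), the other genes among the 12 with the lowest ratios at a mean of 20 CPM or more were *PDLIM7*, *IER3*, *FEZ1*, *CNTNAP2* and *MT-CO2*, with log2 ratios between -0.97 and -0.77.

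The highest ratio among genes at a mean of 5 CPM or more was that of *APOA1* (chromosome 11, 116835751 to 116837622), the main protein of high-density lipoprotein and a hypoblast marker. It was at 15.6 CPM [14.3, 17.0] at D4 and 67.3 CPM [65.1, 69.5] at D6 in core cells, and at 1621 and 11926 CPM in FN1-positive cells of the same libraries. The core level was thus 0.964% and 0.564% of the FN1-positive level. This share varied over the hypoblast list, from like values for *GATA6* (0.713% and 0.722%), *GATA4* (1.19% and 0.869%) and *FOXA2* (1.36% and 0.564%) to higher ones for *APOE* (16.7% and 11.7%) and *SOX17* (11.7% and 13.7%). The median share of the FN1-positive level over the hypoblast list was 1.53% at D4 and 1.29% at D6, which for *APOA1* amounts to 24.7 and 154 CPM, more than the core cells held on either day. Once this was subtracted, no ratio between days could be formed for *APOA1*. The median share was above the share of *APOA1* itself on both days, which set this outcome in advance. The subtraction therefore could not decide where the *APOA1* RNA of the core cells came from.

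The other genes among the 12 with the highest ratios at a mean of 20 CPM or more had log2 ratios between 0.89 and 1.22. *CCDC151*, a gene of ciliary dynein arm assembly, was at 13.0 and 30.2 CPM, a log2 ratio of 1.22 [1.07, 1.37]. *FBXO2*, a ubiquitin ligase subunit, was at 40.9 and 83.5 CPM, and *CRABP2*, a retinoic acid carrier, at 34.4 and 68.4 CPM. *APELA*, a secreted peptide of pluripotent cells, stood at 29.6 and 55.9 CPM, and *STC2*, a secreted glycoprotein, at 32.9 and 61.2 CPM. *UPK1A-AS1* was at 15.7 and 33.8 CPM; it overlaps *UPK1A* (chromosome 19, 35666517 to 35678481), which was at 9.52 and 19.4 CPM, and how reads were assigned between the pair is not given in the sources used here. The list also held AL591742.2 and *ABCA7*, with log2 ratios of 0.98 and 0.91.

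**Figure D3:**
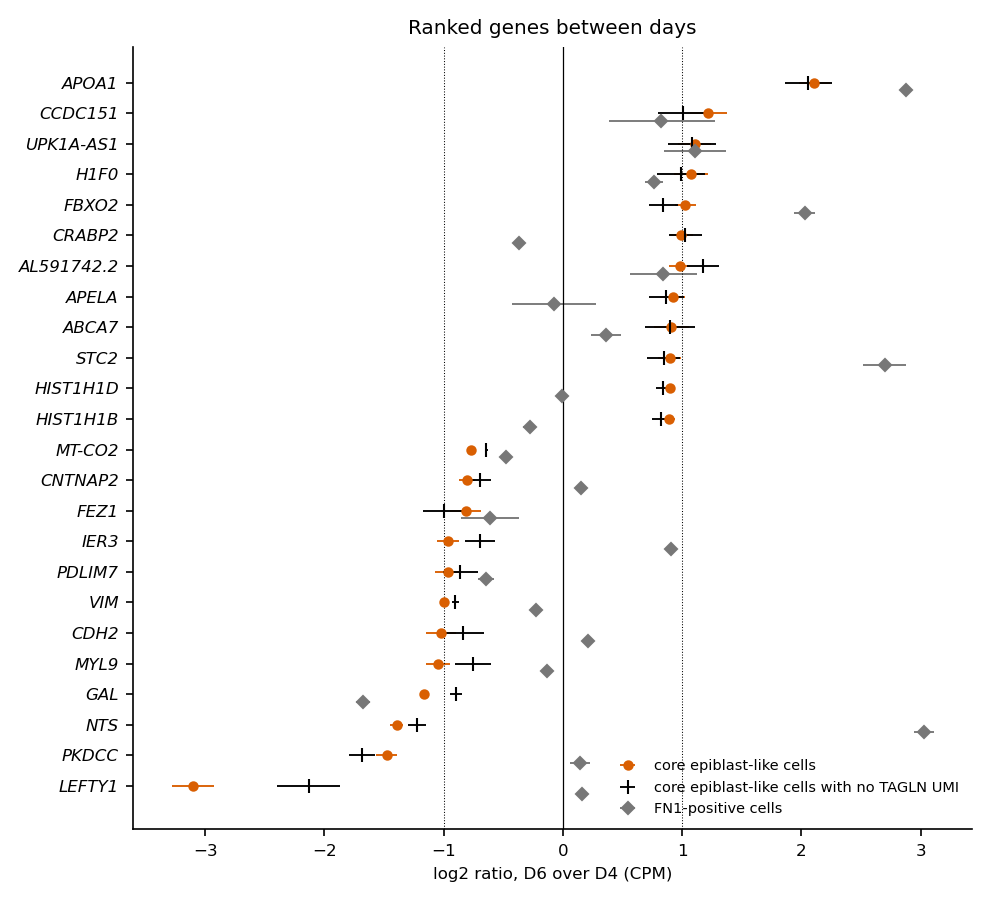
Log2 ratio of CPM at D6 over D4 (x axis) for the 12 highest and 12 lowest genes of the core cells at a mean of 20 CPM or more, rule genes left out, where orange circles are core epiblast-like cells, black bars core cells with no *TAGLN* UMI and grey diamonds FN1-positive cells, with 95% counting intervals as horizontal lines, and dotted lines mark 2-fold. *NTS*, *CDH2*, *PKDCC*, *LEFTY1*, *IER3* and *CNTNAP2* lie left of 0 in core cells and right of it in FN1-positive cells.

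Linker histone genes were not one of the 26 gene lists, and *HIST1H1D*, *HIST1H1B* and *H1F0* were among the 12 highest ratios. *HIST1H1D* was at 213 CPM [209, 218] at D4 and 397 CPM [392, 402] at D6, *HIST1H1B* at 129 CPM [125, 133] and 239 CPM [235, 243], and *H1F0* at 15.4 CPM [14.1, 16.8] and 32.3 CPM [30.9, 33.9]. All 6 compared H1 genes were higher at D6 when differences of any size were counted. Their log2 ratios ran from 0.24 to 1.07 with a median of 0.69, beside a median of 0.03 over all genes. Their sum with the 2 others found was 754 and 1155 CPM. In FN1-positive cells this sum was 766 and 741 CPM. The 25 compared core histone genes of the HIST clusters had a median of 0.09, with 16 higher and 9 lower.

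Of 18 compared shared pluripotency factors beside *POU5F1* and *SOX2*, none differed by 1.5-fold between days, which is near the background of 1.77% higher and 0.791% lower over all genes, and their median log2 ratio was 0.02. *NANOG* was at 51.3 CPM [48.9, 53.7] and 66.5 CPM [64.3, 68.7]. *L1TD1*, an RNA-binding protein of pluripotent cells, was at 1199 and 1132 CPM, *TERF1*, a telomere protein, at 717 and 780 CPM, the de novo methyltransferase *DNMT3B* at 340 and 349 CPM, and *DPPA4* at 326 and 398 CPM. Among 24 primed and post-implantation epiblast genes the median was -0.13, and *CDH2* was the 1 gene past 1.5-fold. *OTX2*, a factor of the anterior epiblast, was at 57.0 and 39.1 CPM, *THY1*, a surface glycoprotein, at 206 and 143 CPM, and *POU3F1* at 27.2 and 33.3 CPM.

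Naive pluripotency genes were mostly near 0. Of 22 listed, 11 were under 1 CPM on each day, and 5 at D4 and 2 at D6 had no UMI at all. With no UMI in the D4 core cells, the share of cells with a UMI could still reach 0.127%, and with none in those of D6 0.0807%. Those above 5 CPM on average were *ZFP42* (97.7 and 93.5 CPM), *NANOG*, *PRDM14* (15.8 and 16.6 CPM) and *TFAP2C* (6.19 and 6.84 CPM). *KLF17*, a factor of the naive human epiblast, had no UMI at D4 and stood at 0.018 CPM at D6, and *DPPA5* and *SUSD2* were under 1 CPM.

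Of 13 compared noncoding RNAs of pluripotent cells, 11 were higher at D6, and the median log2 ratio was 0.29, beside 0.03 over all genes. Past 1.5-fold were 2 higher and 1 lower, beside 1.77% and 0.791% over all genes, and none passed 2-fold. *ESRG* was at 420 CPM [414, 427] and 576 CPM [570, 582], LINC00678 at 146 CPM [142, 150] and 193 CPM [189, 196], and *LNCPRESS2* at 17.4 and 30.6 CPM. LINC01356 was lower, at 114 and 73.5 CPM. The host transcript of the miR-302 cluster, *MIR302CHG*, was at 590 and 638 CPM.

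Past 1.5-fold were 2 of 18 compared genes of the FGF list and 1 of 13 of the WNT list, beside 1.77% higher and 0.791% lower over all genes. In the BMP list 3 of 13 were. Of these, 2 reached the mean of 5 CPM only through D6, where they were high, so this count cannot be read against those shares. For FGF signalling, which sustains primed pluripotency, the ligand *FGF2* was at 61.3 and 54.8 CPM, the receptor *FGFR1* at 296 and 292 CPM, and the feedback inhibitor *DUSP6* at 98.9 and 69.8 CPM. Of 18 compared genes *EGR1* (70.8 and 122 CPM) and *IER3* (64.5 and 33.1 CPM), both early response genes, passed 1.5-fold. For BMP signalling, which induces amnion, the targets *ID1* (1100 and 888 CPM), *ID2* (100 and 83.0 CPM), *ID3* (1055 and 659 CPM) and *ID4* (76.5 and 57.7 CPM) were all lower at D6, with *ID3* past 1.5-fold. The rule's limit on *TFAP2A* alone left out 271 cells at D4 and 643 at D6. Those cells held *ID4* at 145 and 179 CPM, and *ID1* at 2230 CPM at D6. The part of this limit in the lower *ID* values was not tested. The BMP target *MSX2*, at 3.34 and 6.68 CPM, and the ligand *BMP4*, at 3.65 and 6.68 CPM, were higher at D6. They are the 2 that passed the filter only through D6. Of 13 compared WNT genes, 1 passed 1.5-fold, the antagonist *SFRP1*, lower at D6 at 457 and 274 CPM. The target *AXIN2* was at 11.9 and 14.6 CPM.

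Serine, one-carbon and ATF4 target genes had the highest median among the lists with at least 10 compared genes, at 0.39. Of 21 compared, 20 were higher at D6, 7 of them past 1.5-fold (1.77% over all genes), and *CHAC1* past 2-fold (0.21% over all genes), at 6.50 and 16.1 CPM. *PHGDH*, the first enzyme of serine synthesis, was at 238 and 311 CPM, *PSAT1* at 165 and 227 CPM, and *DDIT4*, an inhibitor of mTOR signalling that also belongs to the hypoxia list, at 98.0 and 179 CPM. Of 16 hypoxia response genes 15 were higher at D6, 3 past 1.5-fold (1.77% over all genes), with a median of 0.28, as *VEGFA* at 17.8 and 29.4 CPM. Both lists were also higher at D6 in FN1-positive cells. The serine list summed to 1382 and 1779 CPM in core cells and to 1346 and 2556 CPM in FN1-positive cells. The hypoxia list summed to 1390 and 1673 CPM in core cells and to 1672 and 2490 CPM in FN1-positive cells. The 21 glycolysis genes had a median of 0.13 and none past 1.5-fold, with *PGK1* at 1055 and 1348 CPM and *LDHA* at 1475 and 1570 CPM. The 25 genes of cholesterol and fatty acid synthesis had a median of -0.15, as *FDPS* at 369 and 312 CPM.

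**Figure D4:**
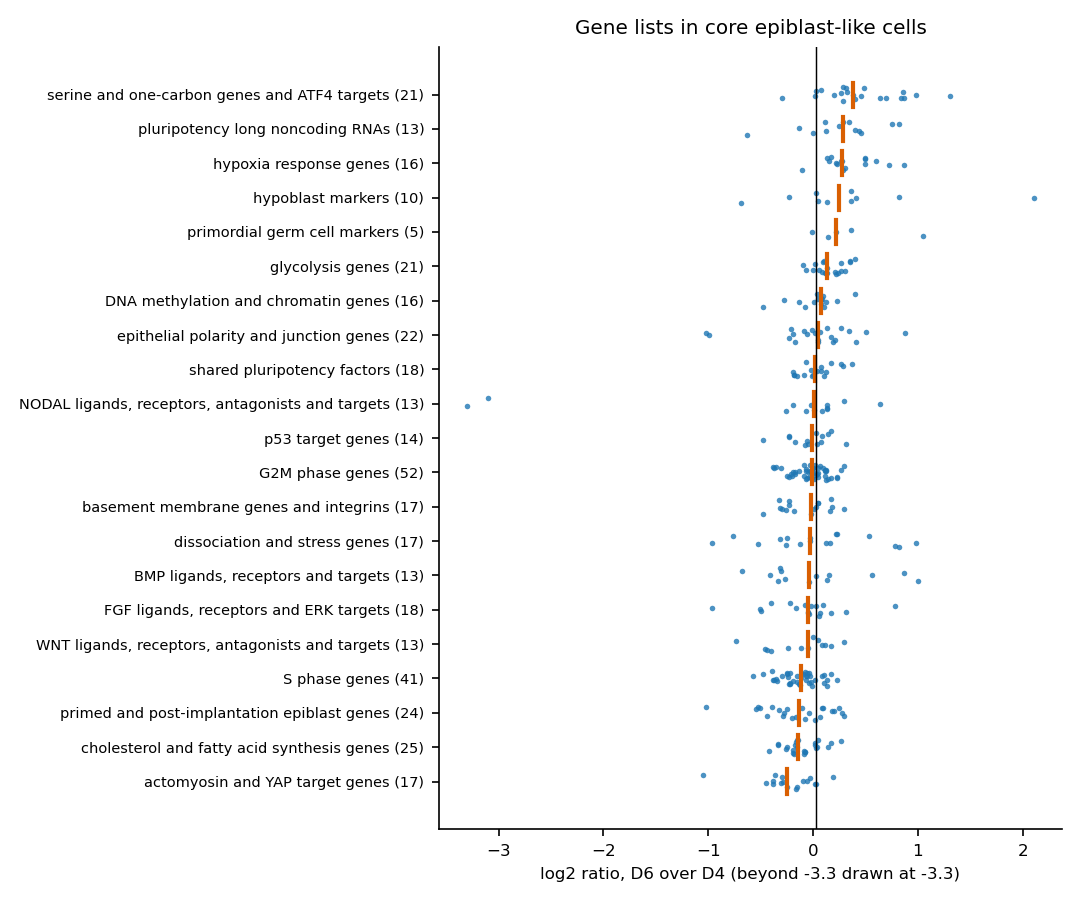
Log2 ratio at D6 over D4 in core epiblast-like cells (x axis) of the genes of each list with at least 5 genes compared, with the number compared in parentheses, where points are genes, orange bars list medians, and the black line the median of all compared genes, 0.03. Medians run from -0.25 for actomyosin and YAP target genes to 0.39 for serine, one-carbon and ATF4 target genes, and 1 point beyond the axis limit (*LEFTY2*) is drawn at the limit.

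Against FN1-positive cells the core cells differed in many more genes, as their selection requires. At D4, 803 of 10604 genes (7.57%) were at least 2-fold higher in core cells and 1133 (10.7%) at least 2-fold lower, and at D6 1130 of 10818 (10.4%) and 1369 (12.7%). With mitochondrial and ribosomal protein genes left out of the totals, the numbers at D6 were 1662 higher and 1241 lower. Of the genes at a mean of at least 50 CPM in core cells, those with the highest ratios on both days, rule genes aside, included LINC00678, *SFRP2*, AC064802.1, AC009446.1, *CNMD*, *ESRG*, *FOXD3-AS1*, AL353747.4, *PTPRZ1*, *UTF1* and *THY1*. The first of these, LINC00678, was at 146 and 193 CPM in core cells against 1.67 and 2.49 CPM in FN1-positive cells. *PTPRZ1*, a receptor phosphatase, was at 193 and 213 CPM against 7.25 and 4.02 CPM, and *CNMD*, a membrane protein of cartilage, at 113 and 105 CPM against 1.55 and 1.75 CPM.

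The 8 genes with the lowest ratios on both days, rule genes aside, were *RSPO3*, *PLCXD3*, *GATA6*, *ERBB4*, *FOXQ1*, *TBX3*, *APOA2* and *APOA1*. They were ranked at a mean of at least 50 CPM in FN1-positive cells, where they were high, so their low ratios are descriptions. At D6 the actomyosin and YAP target list held a lower ratio than any of them, -8.13. *RSPO3*, a secreted enhancer of WNT signalling, was at 0.374 and 2.02 CPM in core cells against 68.8 and 443 CPM in FN1-positive cells. Among hypoblast markers, all 21 compared at D4 and all 23 at D6 were lower in core cells, with medians of -6.20 and -6.31. Over all genes 10.7% and 12.7% were at least 2-fold lower. Of the 24 listed, 9 at D4 and 8 at D6 were under 1 CPM in core cells. Such genes could reach a mean of 5 CPM only through the FN1-positive cells, so the direction was largely set by the filter and the selection. The genes of the list differed in how far below they were. *APOE*, a lipid carrier, was at 930 and 1023 CPM in core cells, or 16.7% and 11.7% of its FN1-positive level, and *SOX17*, an endoderm and germ cell factor, at 10.9 and 13.99 CPM, or 11.7% and 13.7%. *SOX17* was seen in 8.39% [7.28, 9.61] and 10.2% [9.22, 11.2] of thinned core cells, and *GATA4*, of similar level to *SOX17* in FN1-positive cells (72.4 against 92.9 CPM at D4), in 0.662% [0.371, 1.09] and 0.580%.

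Many markers of other cell types were under 1 CPM in the core cells, though some, such as *NES* and *CLDN10*, were not. The rule had left out cells with *TFAP2A* or with more than 1 UMI of the streak genes. Low levels of amnion, streak and mesoderm markers were thus in part set by the selection. The part of markers of other cell types in the differences between days was not tested beyond the subtraction above, which could not decide it for *APOA1*. For amnion, the 17 genes beside *TFAP2A* summed to 95.6 and 100.8 CPM, of which the tight junction gene *CLDN10* held 57.8 and 60.4 CPM, and *ISL1* and *GABRP* were at or under 1.2 CPM and *VTCN1* had no UMI. The 22 streak and mesoderm markers beside the rule genes summed to 38.7 and 42.7 CPM, with *KDR* the most abundant, and *GSC*, *CDX2* and *HAND1* were under 1 CPM. Trophoblast markers summed to 55.2 and 44.8 CPM over 20 genes, 15 of them under 1 CPM on each day, with *TEAD4* the most abundant, *CGA* at 0 on both days and *ELF5* at 0 at D4. Of 17 neural ectoderm markers *NES* (89.1 and 67.4 CPM) and *CDH2* were the 2 compared, and *SOX1* and *PAX6* were under 1 CPM. Primordial germ cell markers summed to 125 and 144 CPM, mostly *ALPL* and *PDPN*, with *NANOS3* under 1 CPM and *KIT*, a receptor kinase, at 5.87 and 12.2 CPM.

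Cells that met every criterion but one were compared with the core cells of the same day; the genes named for them were chosen after their values were seen, as the 5 highest and lowest ratios at a mean of 50 CPM. Cells with 5 or more *TAGLN* UMIs at D4 had *CAV1*, a coat protein of caveolae, at 94.6 CPM against 13.4 CPM in core cells, *LEFTY1* at 272 against 47.7 CPM and *LEFTY2* at 87.8 against 15.8 CPM. They were deeper, with a median of 17554 UMIs. *POU5F1* was at 1205 CPM in them and *SFRP2* at 450 CPM. Cells with *TFAP2A* at D6 had *PCAT14* at 285 against 38.8 CPM, *ID4* at 179 against 57.7 CPM, *ID1* at 2230 against 888 CPM and LINC00458 at 116 against 598 CPM. At D4 the same genes differed less, with *PCAT14* at 103 against 31.8 CPM and LINC00458 at 344 against 658 CPM. Cells with 3 or more *CYP26A1* UMIs at D6 had *PKDCC* at 119 against 30.7 CPM, *FZD5*, a WNT receptor, at 97.3 against 34.0 CPM, and *CST1* at 136 against 31.6 CPM. At D4 the highest ratio in these cells was that of *LEFTY1*, at 128 CPM.

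**Figure D5:**
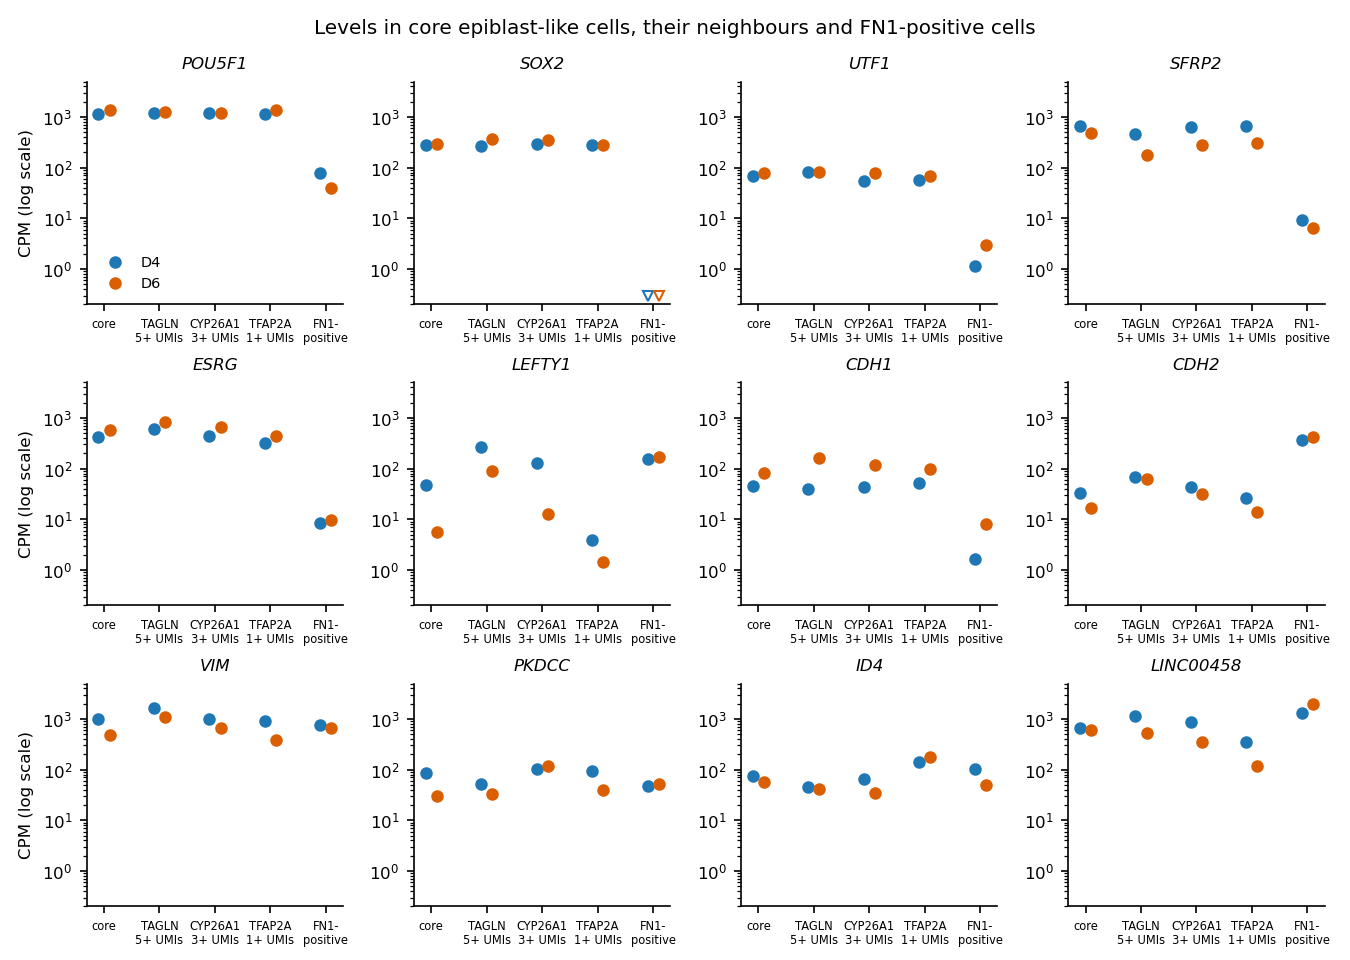
Level in CPM (y axis, log scale) of 12 genes in core epiblast-like cells, in cells that miss the rule on *TAGLN*, *CYP26A1* or *TFAP2A* alone, and in FN1-positive cells, at D4 (blue) and D6 (orange); open triangles mark genes with no UMI. *POU5F1* is level across the epiblast-like groups, whereas *LEFTY1* is highest in cells with 5 or more *TAGLN* UMIs and lowest in cells with *TFAP2A* among them.

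Within the core cells, variation beyond sampling was small for most genes. In cells thinned to 8000 UMIs, the median squared coefficient of variation left after the Poisson part was removed was 0.0448 at D4 and 0.0456 at D6 over 3043 genes at a mean of 50 CPM or more. It was 0.01 at D4 and 0.02 at D6 for *POU5F1*, a rule gene, and 0.08 and 0.09 for *L1TD1*. For the marker *SFRP2* it was 0.08 and 0.16, and for *UTF1* 0.61 and 0.35. The 10 most variable genes at D4 were LINC01356, *NEAT1*, *HIST1H1D*, *HIST1H1B*, *PKDCC*, *NTS*, LINC00458, *FOS*, *HIST1H1C* and *HIST1H1E*. Those at D6 were LINC01356, *NTS*, *MT1E*, *FOS*, *NEAT1*, *CLDN10*, *PKDCC*, LINC00458, *DUSP6* and *ID4*, so 6 genes were on both lists. LINC01356 led on both days, at 1.54 and 4.68. *CLDN10* had nearly the same level on both days, 57.8 and 60.4 CPM, but its excess variation was 0.13 at D4 and 1.35 at D6. In cells with *TFAP2A* at D6 *CLDN10* stood at 142 CPM. *FOS*, an early response gene, was at 163 and 182 CPM, with 0.84 and 1.60.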

How the data were processed

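The authors made the 2 count files with Cell Ranger (6.0.1 per the file headers), naming hg38, Seurat 4.0.1 and R 4.0.3 in the submitters' processing notes. The deposited values are raw UMI counts for 36601 genes in called cells; strand and annotation settings are not given in the sources used here. The D4 file held 151712246 UMIs in 10943 cells and the D6 file 150320228 in 11483. The 7 bisulfite libraries were not analysed here. Kept cells had 3430 to 27500 UMIs and at most 10% mitochondrial UMIs. The members, their markers and the 26 gene lists were chosen with earlier results of these data known.

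UMIs were summed per gene over cells and divided by all UMIs of those cells (CPM). Intervals were exact Poisson for levels, exact binomial for shares and conditional binomial for log2 ratios, at 95%; they cover counting error only. For rankings, numbers of genes past a fold, and medians and ranges over genes, UMI counts under 3 were set to 3. Ratios given with intervals used the counts as they were. Genes at a mean of 5 CPM were compared and counted at 2-fold. Named were rule genes and markers, the 12 highest and 12 lowest ratios between days at a mean of 20 CPM (rule genes left out of all rankings), the 12 highest and 8 lowest against FN1-positive cells on both days at 50 CPM, the 10 most variable genes per day, and in each list the members with the highest level or ratio; other list members were named for their role after their values were seen. A gene that met this rule is not reported here. Scrublet (scanpy 1.11.5) marked 3.45% and 4.28% of kept cells as doublets, 17 and 43 of them core cells; they were left out in 1 alternative only. Scripts ran in Python 3.11.15 with numpy 2.4.6 and scipy 1.17.1 and were tested on simulated counts. Alternatives changed the measure, filter, scaling, doublets, depth, rule, fold and free RNA.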

Additional observations from a re-analysis of the deposited data

Results flagged for a closer look

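In 4 of the 24 ranked genes the core epiblast-like cells and the FN1-positive cells of the same 2 libraries differed between days in opposite directions, with at least 2-fold in core cells and both counting intervals clear of 0. The difference between the cell groups was not tested, since each day has 1 library. The log2 ratio of D6 over D4 was -3.10 in core cells and 0.16 in FN1-positive cells for *LEFTY1*, -1.48 and 0.14 for *PKDCC*, -1.39 and 3.03 for *NTS*, and -1.02 and 0.21 for *CDH2*. *CDH2* was short of 2-fold in 5 of 10 alternatives, down to -0.84 in members with no *TAGLN* UMI. *NTS* had the largest gap of the 4: at D4 core cells held more of it than FN1-positive cells (202 against 28.1 CPM), and at D6 less (76.8 against 229 CPM). In cells that missed the rule on *TAGLN* alone, *NTS* was at 277 CPM at D4 and 45.5 CPM at D6. For *CYP26A1* alone it was at 184 and 40.8 CPM, and for *TFAP2A* alone at 211 and 48.1 CPM. *LEFTY1* and *CDH2* were also lower at D6 in these groups. *PKDCC* was lower in the groups of *TAGLN* and *TFAP2A* but not of *CYP26A1*, where it was at 119 CPM at D6. The part of the rule in its lower core value was not tested.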

How the results depend on the processing

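No paired analysis was possible because each day has 1 library and no result comes from a test. The share of core cells was higher at D6 under each of the 5 alternatives that recomputed it. It was 27.7% at D4 and 39.2% at D6 in cells with 8000 to 20000 UMIs, 10.6% and 19.5% under the stricter rule, 29.6% and 39.3% under the looser rule, and 30.4% and 39.15% in cells thinned to 8000 UMIs; without doublets it was 38.0% at D6. Gene counts moved by over 1.5 times with the filter and the fold, where fewer or more genes could pass by construction, and in members with no *TAGLN* UMI, where the cause was not tested. With a mean of 1 CPM as filter, 128 genes were higher and 70 lower between days, 1603 and 1794 in core against FN1-positive cells at D4, and 2173 higher at D6. With 20 CPM the numbers were 5 and 7, 329 and 553, and 465 and 780. At 1.5-fold they were 186 and 83, 1724 and 2010, and 2304 and 2319. Among members with no *TAGLN* UMI, an alternative chosen after seeing the data, 12 genes were lower, all of them among the 20 of the report, and 18 were higher, 11 of them among the 22. Scaling by median ratios gave 17 and 23 genes between days, and totals without mitochondrial and ribosomal protein genes 32 and 23. The latter moved the median log2 ratio against FN1-positive cells at D6 from 0.04 to 0.22, and list medians between days within about 0.03 of 0 have no firm sign. A second such alternative, an interval wholly beyond 1.5-fold, kept all 22 and 20 genes. The stricter rule called 18 and 17 genes, of which 10 and 14 were among those 22 and 20, and the rule on thinned cells 26 and 25, of which 18 and 18 were. The 24 ranked genes kept their sign under all 10 alternatives that gave them a value. Subtraction of the RNA of FN1-positive cells gave none for *APOA1*. The amount set by the list median was more than the core cells held on either day, so this outcome decides nothing about the gene. *LEFTY1* ran from -3.76 to -2.13. *CDH2* ran from -1.33 to -0.84 and *VIM* from -1.05 to -0.90, on both sides of 2-fold, as were *CRABP2*, AL591742.2, *FBXO2*, *H1F0*, *GAL*, *MYL9*, *IER3* and *PDLIM7* under at least 1 alternative; the cause was not tested. At 3000 UMIs per cell, 7 of the 10 most variable genes at D4 and 8 at D6 stayed among the first 10. Depth limited shares of cells, since a UMI of *UTF1* was seen in 53.9% of D4 core cells before thinning and in 37.9% after.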

Other observations

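Mitochondrial transcripts were lower at D6 in core cells. The 13 mitochondrial genes summed to 38616 CPM at D4 and 28033 CPM at D6, 12 of them were lower, and *MT-CO2* stood at 6527 and 3822 CPM. The median mitochondrial share per core cell was 3.69% at D4 and 2.16% at D6. The sums in FN1-positive cells were also lower at D6, at 38856 and 23739 CPM. Ribosomal protein genes, 84 in all, held 238384 CPM at D4 and 256317 CPM at D6 in core cells, and 199721 and 174916 CPM in FN1-positive cells.

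Cell cycle genes differed little between days in core cells. The 41 compared S phase genes had a median log2 ratio of -0.12, with 33 lower and 8 higher at D6 and none past 1.5-fold. Among them *RRM2*, a subunit of ribonucleotide reductase, was at 138 and 93.3 CPM. The 52 G2M phase genes had a median of -0.01, with 28 lower and 24 higher. Against FN1-positive cells the S phase genes were higher in core cells, with medians of 0.51 at D4 and 0.83 at D6 and 6 and 17 of 41 genes at least 2-fold higher, beside 7.57% and 10.4% over all genes. The selection of the cells was not independent of this comparison. Of 16 compared DNA methylation and chromatin genes none passed 1.5-fold between days, with a median of 0.08. Of 14 compared p53 target genes none did either, near the share over all genes, 1.77% higher and 0.791% lower. Of 17 dissociation and stress genes 3 were past 1.5-fold on the higher side and 2 on the lower, beside 1.77% and 0.791% over all genes. *JUN* was at 41.9 and 24.6 CPM and *ATF3* at 5.18 and 10.3 CPM. The lowest ratio of this list was that of *IER3*, which was also counted in the FGF list.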
